A study of Mus musculus with 10 samples.

Results

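A set of 9 genes that mark pancreatic duct cells was followed in the pancreas of 5 wild-type (WT) mice and 5 KSR23 mice. They are the transcription factors Sox9 and Onecut1, the keratins Krt7, Krt8, Krt18 and Krt19, and Spp1, Epcam and Prom1, which encode secreted or surface proteins. They were chosen by symbol from 24062 genes, all 9 were listed in every library, and all 9 passed the filter on low counts. The question was which duct genes rise with Sox9 in KSR23 mice and which do not. KSR23 mice carry the R23 cassette, which codes for the cytokine IL-23 (subunits p19, gene Il23a, and p40, gene Il12b), and Cre recombinase driven by the K14 promoter, so that expression is directed to keratinocytes and other cells in which that promoter is active. All 10 mice were C57BL/6 at post natal day 5, and the WT mice are described in the study as control littermates. Whole pancreas RNA was sequenced as 1 library per mouse.

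The exocrine pancreas is built of acini, whose cells make digestive enzymes, and of ducts, which carry them to the gut and add bicarbonate. Sox9 is made by the multipotent progenitors of the embryonic pancreas and later stays on in duct and centroacinar cells. Onecut1, also called HNF6, acts in the same progenitors and is needed for normal duct formation. Keratins form filaments only as pairs of a type II protein (Krt7, Krt8) with a type I protein (Krt18, Krt19). Krt8 and Krt18 are found in acinar and duct cells alike, while Krt7 and Krt19 are the classical duct keratins. Spp1 encodes osteopontin, a secreted glycoprotein that macrophages can also make, Epcam encodes an epithelial adhesion molecule, and Prom1 encodes prominin-1, a membrane protein of apical protrusions.

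The partner genes Krt8 and Krt18 are neighbours on mouse chromosome 15 (GRCm38). Krt8 lies at chr15:101996698-102004482 on the minus strand and Krt18 at chr15:102028180-102032027 on the plus strand, so they point away from each other. The other keratins lie at chr15:101411043-101430313 (Krt7) and chr11:100140810-100148665 (Krt19), and the remaining genes at chr11:112782224-112787760 (Sox9), chr9:74861921-74891781 (Onecut1), chr5:104435118-104441050 (Spp1), chr17:87635979-87651129 (Epcam) and chr5:43993620-44102032 (Prom1). The start sites of Krt8 and Krt18 are 23698 bases apart, and 0 annotated genes start between them. The sequences upstream of these partners, which rose together, are shown with that of Spp1, the member with the highest level, from RefSeq windows of GRCm38.p6 that end at the RefSeq start site and with bases in GENCODE exons left out. They cover chr15:102004483-102004592 (Krt8, minus strand), chr15:102027966-102028179 (Krt18, plus strand) and chr5:104434861-104435110 (Spp1, plus strand), and capitals mark a match to the ONECUT motif ATTGAT, here on the opposite strand.
Krt8: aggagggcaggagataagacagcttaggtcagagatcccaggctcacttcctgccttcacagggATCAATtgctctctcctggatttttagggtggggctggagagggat
Krt18: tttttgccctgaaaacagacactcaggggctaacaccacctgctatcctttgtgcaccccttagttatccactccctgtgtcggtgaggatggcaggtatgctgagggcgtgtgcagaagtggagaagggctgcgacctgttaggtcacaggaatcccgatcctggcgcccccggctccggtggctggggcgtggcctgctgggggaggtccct
Spp1: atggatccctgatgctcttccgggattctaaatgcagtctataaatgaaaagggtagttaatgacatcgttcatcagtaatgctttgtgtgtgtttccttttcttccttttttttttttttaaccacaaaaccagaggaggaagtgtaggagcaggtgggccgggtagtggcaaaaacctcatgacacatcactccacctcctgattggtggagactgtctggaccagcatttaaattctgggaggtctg
The whole windows of 250 bases were searched on both strands in the 7 members that have an entry, which are all but Sox9 and Krt19. The motif ATTGAT was found in Krt8 alone among them, 186 to 181 bases before the start, and in 6.72% of all 32851 windows. Neither the STAT motif TTCNNNGAA, held by 7.02% of all windows, nor the SOX motif AACAAT, held by 9.42%, occurred in any of the 7. The GC box GGGCGG was found in Onecut1, Krt7, Epcam and Prom1, and in 32.7% of all windows. No 2 of these matches overlapped.

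Before the results, some facts of the libraries bear on all of them. Reads counted on genes numbered 26830235 to 33189132 in the WT libraries and 16715976 to 57784136 in the KSR23 libraries, of which replicate 3 was the smallest. Alignments that were not unique, and so went to no gene, made up 49.6% to 53.7% of alignments in WT and 38.5% to 42.5% in KSR23 libraries. Il23a was low in the pancreas, with 1 to 9 counts in WT and 21 to 48 in KSR23 libraries and a mean of 0.179 and 1.07 CPM (read counts scaled to the size of each library), with no overlap (exact permutation test, two-sided, p = 0.00794, the smallest that 5 against 5 mice allow). Il12b had 0 to 7 counts in WT and 3 to 13 in KSR23 libraries (exact permutation test, p = 0.0635). Over all 13882 genes tested, 2250 were higher in KSR23 mice, or 16.2%, and 2049 were lower, or 14.8% (together 31%), at an adjusted p under 0.05 in edgeR's quasi-likelihood test, with a median log2 fold change (FC) of -0.01. With scaling by library size alone these counts were 3075 and 1161.

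Of the 9 duct genes, 7 rose in KSR23 mice, 0 fell and 2 did not pass the test, against the 16.2% of all genes that rose. The 7 were Sox9, Krt7, Krt8, Krt18, Spp1, Epcam and Prom1, by a log2 FC of 0.36 to 1.43. For each of them every KSR23 mouse lay above every WT mouse, which held for 10.7% of all genes tested. No member had every KSR23 mouse below every WT mouse, which held for 8.74% of all genes. Onecut1 and Krt19 were the 2 that did not pass, and their groups overlapped. The median log2 FC of the 9 was 0.71. The choice of these genes was made with earlier results of these libraries in view, so the count describes the set and is no test of it.

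**Figure D1:**
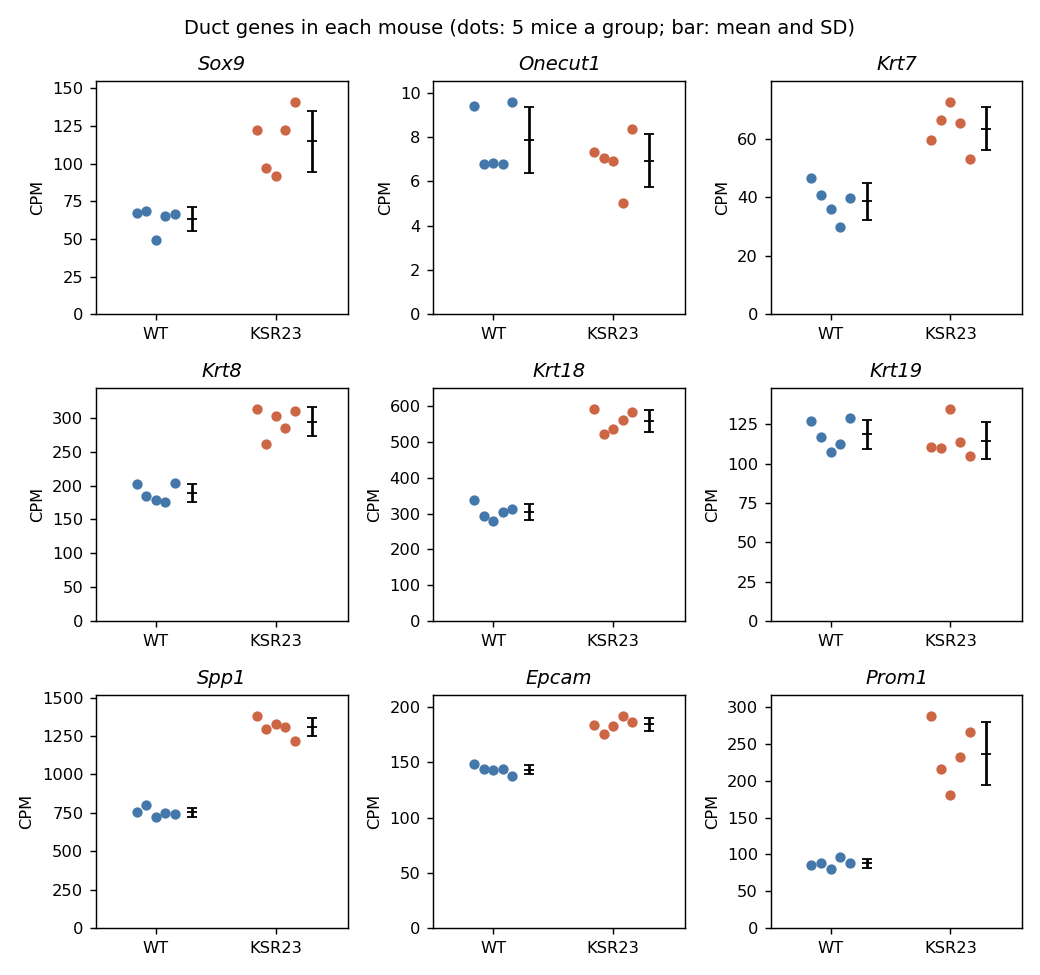
Level of each of the 9 duct genes in CPM (vertical axes, from 0) in 5 WT and 5 KSR23 mice, where each dot is a mouse and the bar gives the group mean and its SD. The groups stand apart in 7 panels, and they overlap for Onecut1 and Krt19.

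Sox9 rose 1.82-fold. Its level was 67.1, 68.4, 49.4, 65.1 and 66.3 CPM in WT mice 1 to 5, and 123, 96.7, 91.6, 122 and 141 CPM in KSR23 mice 1 to 5. The 2 groups did not overlap, and WT mouse 3 was the lowest of the 10. The mean was 63.3 ± 7.84 CPM (SD, n = 5) in WT and 115 ± 20.3 CPM (SD, n = 5) in KSR23 mice, a log2 FC of 0.86 with an SE of 0.110 and an adjusted p of 1.03e-05. The rise was 1.55- to 2.13-fold within its 95% confidence interval. The log2 FC was 0.78 without WT mouse 3, and 565 of the genes tested had a larger one than Sox9.

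Onecut1, the other factor, did not rise with Sox9. It was measured at 9.39, 6.80, 6.81, 6.78 and 9.58 CPM in the WT mice and at 7.32, 7.05, 6.94, 5.03 and 8.36 CPM in the KSR23 mice. These ranges overlapped, with a single KSR23 mouse below all WT mice. Its mean was 7.87 ± 1.47 CPM (SD, n = 5) in WT and 6.94 ± 1.21 CPM (SD, n = 5) in KSR23 mice, with a log2 FC of -0.18, an SE of 0.150 and an adjusted p of 0.393. The 95% interval of that log2 FC ran from -0.49 to 0.14 and so lay wholly below the 0.63 at which the interval of Sox9 began. In the GENCODE annotation, 46.0% of the 75-base windows of the Onecut1 transcript are unique to it, and the rest is shared with the overlapping noncoding gene Gm20649 on the same strand, which was not analysed here.

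The keratins divided. Krt18 and Krt8, the general epithelial pair, both rose, as did Krt7, while Krt19 did not. Krt18 stood at 337, 292, 279, 305 and 312 CPM in WT mice and at 591, 521, 534, 559.7 and 584 CPM in KSR23 mice. Its means of 305 ± 21.7 and 558 ± 30.4 CPM (SD, n = 5 each) differed by a log2 FC of 0.87 (SE 0.0681, adjusted p = 2.07e-08 by edgeR), the highest estimate among the 4 keratins. The lowest KSR23 mouse was far above the highest WT mouse.

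Krt8, its type II partner, stood at 203, 184, 178, 175 and 204 CPM in WT mice and at 313, 262, 303, 284 and 310.4 CPM in KSR23 mice. The groups did not overlap. Means of 189 ± 13.5 and 294 ± 21.5 CPM (SD, n = 5 each) gave a log2 FC of 0.64 (SE 0.0695, adjusted p = 1.38e-06 by edgeR). A share of 76.5% of the windows of the Krt8 transcript is unique, and Krt8-ps and Gm36026, which were not analysed here, share the rest.

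Krt7 was measured at 46.7, 40.7, 36.0, 29.9 and 39.7 CPM in WT mice and at 59.6, 66.3, 72.5, 65.5 and 53.2 CPM in KSR23 mice. It again separated the groups. The means were 38.6 ± 6.21 and 63.4 ± 7.30 CPM (SD, n = 5 each), with a log2 FC of 0.71 (SE 0.104, adjusted p = 4.42e-05 by edgeR). An antisense gene, Gm671, overlaps Krt7, and since the strand setting of the counting is not given in the sources used here, reads of the 2 cannot be told apart.

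Krt19, the keratin most often used to mark ducts, stood at 127, 117, 108, 113 and 129 CPM in WT mice and at 111, 109.8, 135, 114 and 105 CPM in KSR23 mice. The highest and the lowest of the 10 values were both from KSR23 mice. The means, 119 ± 9.17 and 115 ± 11.7 CPM (SD, n = 5 each), differed by a log2 FC of -0.05 (SE 0.0759, adjusted p = 0.663 by edgeR). Its 95% interval, from -0.21 to 0.11, allows a change between 0.865-fold and 1.08-fold and does not reach the intervals of the other 3 keratins. With scaling by library size alone, the log2 FC of Krt19 was 0.05, again without passing the test. In the GENCODE annotation, 100% of the 75-base windows of the Krt19 transcript are unique to it. These values are RNA of the whole pancreas. By immunostaining, the study reported more cells positive for the KRT19 protein in KSR23 mice, some of them acinar. Protein was not measured in these libraries.

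Spp1 had the highest level of the members in both groups, also per kilobase. It was at 758, 801, 722, 746 and 743 CPM in WT mice and at 1382, 1299, 1331, 1308 and 1218 CPM in KSR23 mice. The lowest KSR23 mouse exceeded the highest WT mouse by a wide margin. Means of 754 ± 29.3 and 1308 ± 59.5 CPM (SD, n = 5 each) gave a log2 FC of 0.79 (SE 0.0714, adjusted p = 1.31e-07 by edgeR). A share of 92.5% of the windows of the Spp1 transcript is unique, and the overlapping gene Gm42793 on the same strand shares the rest. Because macrophages can make Spp1, their markers are given beside it further on.

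Epcam rose the least of the 7, from 148, 144, 143, 144 and 137 CPM in WT mice to 184, 176, 183, 192 and 187 CPM in KSR23 mice. Both groups were tight, and they did not overlap. The means were 143 ± 3.89 and 184 ± 5.93 CPM (SD, n = 5 each), a log2 FC of 0.36 with an SE of 0.0562 and an adjusted p of 8.19e-05. The 95% interval of the change was 1.19- to 1.40-fold.

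Prom1 rose the most. It was at 85.6, 88.8, 80.2, 96.4 and 88.3 CPM in WT mice and at 288, 216, 180.1, 233 and 267 CPM in KSR23 mice. Every KSR23 mouse was above every WT mouse, although the KSR23 mice were spread more widely. The means of 87.9 ± 5.88 and 237 ± 42.4 CPM (SD, n = 5 each) differed 2.70-fold, with a log2 FC of 1.43, an SE of 0.101 and an adjusted p of 5.81e-09. An antisense gene, Gm16401, overlaps Prom1, with the same limit as for Krt7.

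To ask which genes moved by another amount than Sox9, the count model was fitted again with each library scaled to its own Sox9 count. Against Sox9, 11836 of 13881 other genes were lower, or 85.3%, and 221 were higher, or 1.59% (together 86.9%), as any gene near the median of all genes must be lower on this scale. Of the 8 other duct genes, 3 were lower than Sox9, 1 was higher and 4 did not pass the test. Onecut1 fell behind by 1.03 on the log2 scale (log2 FC relative to Sox9 -1.03, SE 0.211, adjusted p = 3.50e-06), Krt19 had -0.87 (SE 0.171, adjusted p = 1.26e-06) and Epcam -0.48 (SE 0.169, adjusted p = 0.00557). Prom1 exceeded Sox9 by 0.56 (SE 0.169, adjusted p = 0.00131). Epcam therefore rose, but by less than Sox9, and Prom1 rose by more. For these 4 the ratio to Sox9 within each library separated the 2 groups (exact permutation test, two-sided, p = 0.00794, and 0.0118 after adjustment over 13881 genes), although all genes share the spread of Sox9 itself on this scale. How many of all genes separated in this way was not counted. Since 86.9% of all genes differed from Sox9 in the count model, such separation does not set these 4 apart.

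Krt18, Spp1, Krt7 and Krt8 could not be told apart from Sox9. Relative to Sox9 their log2 FC was 0.03 for Krt18 (95% interval -0.31 to 0.36, adjusted p = 0.877), -0.04 for Spp1 (-0.40 to 0.32, adjusted p = 0.832), -0.10 for Krt7 (-0.44 to 0.24, adjusted p = 0.582) and -0.20 for Krt8 (-0.54 to 0.13, adjusted p = 0.245). The intervals leave room for differences of up to 0.54, so these genes are not shown to have moved equally. The ratios to Sox9 overlapped between the groups for all 4, with a permutation p of 0.833 for Krt18, 0.667 for Spp1, 0.587 for Krt7 and 0.167 for Krt8 (exact tests, two-sided).

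**Figure D2:**
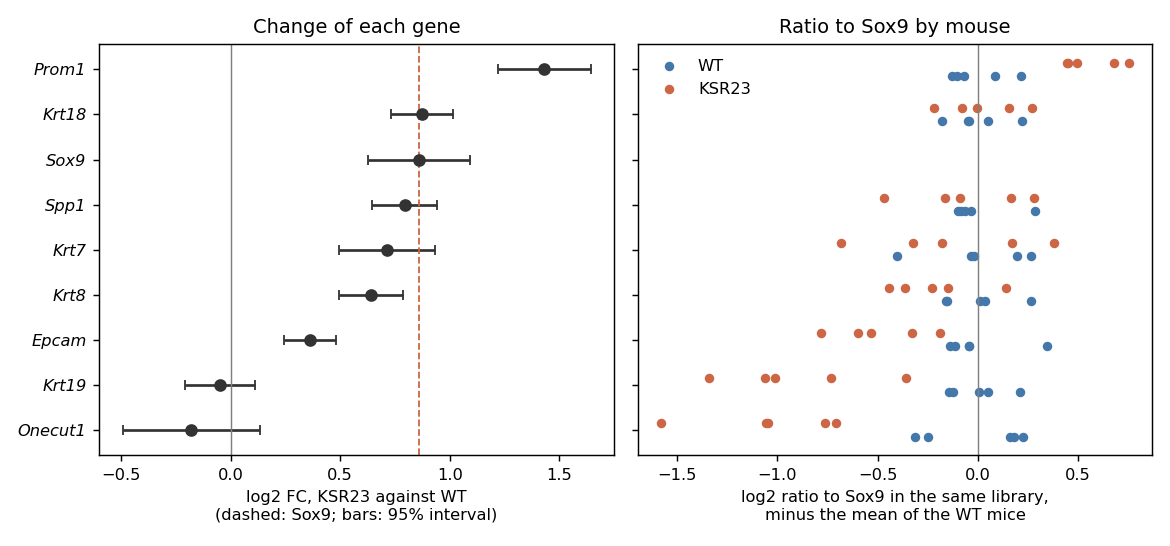
Left, log2 FC of each duct gene between KSR23 and WT mice with its 95% interval, and a dashed line at Sox9 (0.86). Right, log2 ratio of each gene to Sox9 within each library after subtraction of the WT mean, 1 dot per mouse, where the 2 groups separate for Prom1, Epcam, Krt19 and Onecut1 and overlap for the other 4.

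The balance between keratin partners was then read within each library, as log2 ratios of levels per kilobase of transcript. The ratio of Krt8 to Krt18 fell, from 0.480 in WT to 0.409 in KSR23 mice, a difference of -0.23 on the log2 scale with all KSR23 mice below all WT mice (exact permutation test, two-sided, p = 0.00794, adjusted over 5 ratios 0.0132). Thus Krt18 rose by somewhat more than its partner. The ratio of Krt8 to Krt19 rose from 1.22 to 1.97, a log2 difference of 0.69, and that of Krt7 to Krt19 from 0.282 to 0.481, a log2 difference of 0.77 (both with an exact permutation p of 0.00794 and an adjusted p of 0.0132). The ratio of Krt7 to Krt18 was 0.111 and 0.0999, with overlap (exact permutation p = 0.262). The ratio of summed Krt7 and Krt8 to summed Krt18 and Krt19 stood at 0.425 in WT and 0.421 in KSR23 mice, or -1.24 ± 0.0734 and -1.25 ± 0.0464 on the log2 scale (SD, n = 5 each, exact permutation p = 0.817). That difference of -0.01 was smaller than the spread between mice in either group. Keratins outside the members were not in these sums, among them Krt20 at 247 CPM in WT and 340.3 CPM in KSR23 mice. The balance over all keratins was not tested.

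**Figure D3:**
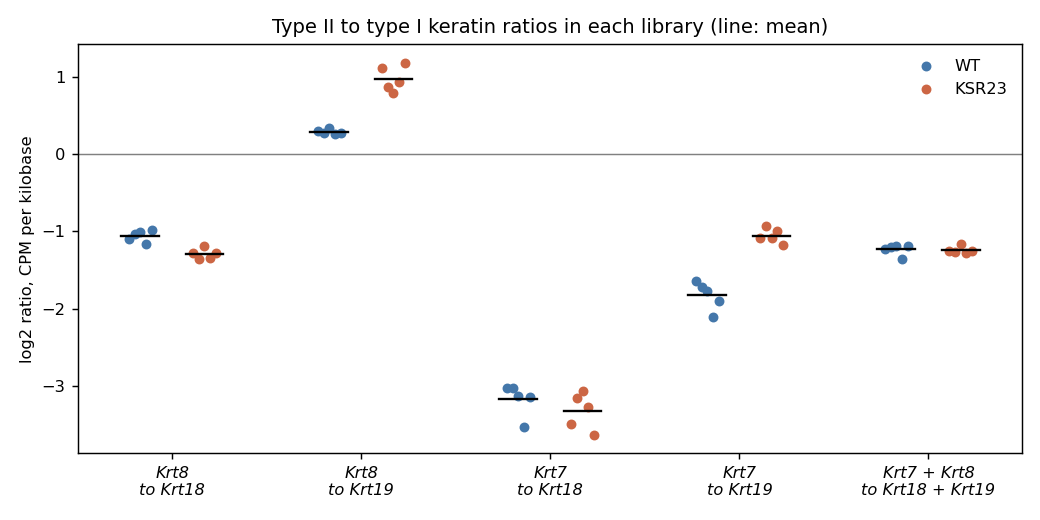
Log2 ratio of type II to type I keratin levels, in CPM per kilobase, in each of 5 WT and 5 KSR23 libraries, with a line at each group's mean. Both ratios to Krt19 are higher in every KSR23 mouse, and the ratio of Krt8 to Krt18 is lower in every KSR23 mouse. The ratio of summed Krt7 and Krt8 to summed Krt18 and Krt19 overlaps.

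Compared per kilobase of transcript, the levels in WT mice ran in the order Spp1 (500.4 CPM per kilobase), Krt18 (218), Krt8 (105), Krt19 (85.8), Epcam (70.3), Krt7 (24.3), Prom1 (24.0), Sox9 (15.3) and Onecut1 (4.32). Of these neighbours, Krt7 and Prom1 overlapped between mice and the others did not. In KSR23 mice the order of levels was Spp1 (868 CPM per kilobase), Krt18 (399), Krt8 (163), Epcam (90.4), Krt19 (83.0), Prom1 (64.6), Krt7 (40.0), Sox9 (27.8) and Onecut1 (3.80). Epcam with Krt19, Krt19 with Prom1, and Krt7 with Sox9 overlapped there. These levels rest on the part of the principal GENCODE transcript within the RefSeq gene bounds, and the choice matters for Krt7, whose GENCODE model is 4094 bases long against 1586 here and would put its WT level at 9.43 CPM per kilobase, below Sox9. With whole GENCODE lengths Prom1 would be above Krt7 in both groups, so their order in WT mice depends on the length used. Krt19 would stand at 75.2 CPM per kilobase in WT and 72.8 in KSR23 mice. Against 70.3 and 90.4 for Epcam, the order of Krt19 and Epcam would stay the same in each group. For Onecut1 the lengths are 3957 and 1824 bases.

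Within the KSR23 group the members did not all order the mice alike. Sox9 was highest in mouse 5, followed by mice 1, 4, 2 and 3, and Krt7 ran in exactly the reverse order, from 72.5 CPM in mouse 3 to 53.2 CPM in mouse 5. Prom1 was likewise lowest in mouse 3, at 180.1 CPM, while Krt19 was highest there, at 135 CPM. Mouse 3 had the smallest library. With that mouse left out, 7 members were still called higher, with a log2 FC of 0.93 for Sox9, 1.52 for Prom1 and 0.66 for Krt7, and Krt19 had -0.11. Nearness to Sox9 over the 10 libraries was read as the root mean square difference of log2 CPM after centring each gene. The nearest genes were Nrbp2 (0.129), Pik3ap1 (0.142), Gm16551 (0.149), Igf2bp2 (0.152) and Cdc42ep1 (0.154). None of them is a duct gene of the lists used here, but Krt18 (0.1544) came close behind. Only 0.036% of the other tested genes were nearer to Sox9 than Krt18. That share was 0.533% for Krt8, 0.591% for Spp1 and 5.30% to 5.97% for Prom1, Epcam and Krt7. For Krt19 it was 47.6% and for Onecut1 65.2%.

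Beyond the 9, duct genes of a further list rose more often than they fell. Over all genes tested, 16.2% were higher and 14.8% lower, and these shares also stand beside the counts of the later lists. All these lists were chosen with earlier results of these libraries in view, so a count describes its list and is no test. Of 20 other duct genes, all tested, 12 were higher, 0 were lower and 8 did not pass, with a median log2 FC of 0.46. The largest rises were those of Tspan8, a tetraspanin, with a log2 FC of 1.89 (SE 0.144, adjusted p = 1.61e-08), Cftr, the chloride channel of duct cells, with 1.49 (SE 0.378, adjusted p = 0.00612, groups overlapping), and Clu, encoding clusterin, with 1.37 (SE 0.100, adjusted p = 9.18e-09). Cftr was low, at 0.662 ± 0.483 and 1.84 ± 0.800 CPM (SD, n = 5 each). Muc1, an apical mucin chosen after its value was seen, rose by 0.57 (adjusted p = 2.06e-05).

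Factors of pancreatic epithelial progenitors moved in both directions. Of 16 listed, 14 were tested, 5 were higher, 1 was lower and 8 did not pass, with a median log2 FC of 0.05. Klf5 rose by 1.47 on the log2 scale (SE 0.139, adjusted p = 2.73e-07) and Mnx1 by 1.16 (SE 0.353, adjusted p = 0.0185) from a low level of 0.387 CPM. The call of Mnx1 was lost without KSR23 mouse 4 (adjusted p = 0.0543) or KSR23 mouse 5 (adjusted p = 0.0512). Picked after their values were seen, Hes1, a target of Notch signalling, rose by 0.79 (adjusted p = 1.86e-06), Onecut2, the paralog of Onecut1, rose by 0.90 (adjusted p = 0.00921) from 1.36 to 2.56 CPM, and Foxa2 fell by 0.41 (log2 FC -0.41, adjusted p = 0.00478). Onecut2 thus passed the test where Onecut1 did not, and the difference between the 2 was not tested.

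Other keratins were mostly too low to test. Of 17, 6 were tested, 3 were higher, 0 were lower and 3 did not pass, with a median log2 FC of 0.29. Krt80 rose by 2.51 (SE 0.180, adjusted p = 7.41e-09), from 2.19 to 12.5 CPM, and Krt17 by 2.42 (SE 0.341, adjusted p = 3.05e-05), from 0.517 to 2.79 CPM. Krt20, an abundant keratin chosen here after its value was seen, rose by 0.46 (adjusted p = 0.000175), from 247 to 340.3 CPM. Krt5, Krt6a, Krt13 and Krt16 had 0 counts in all 10 libraries, which allows up to 0.0536 to 0.168 CPM per library when 3 counts are taken as the limit.

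A list of epithelial genes held junction and adhesion genes together with transcription and splicing factors of epithelia. Of 17, 16 were tested, 10 were higher, 1 was lower and 5 did not pass, with a median log2 FC of 0.28. Cldn4, a tight junction claudin, rose by 2.61 (SE 0.233, adjusted p = 1.18e-07) and Elf3, an epithelial transcription factor, by 2.24 (SE 0.147, adjusted p = 2.27e-09). The count for desmosome and plakin genes, whose proteins anchor keratin filaments, depended on the processing. Of 11, 10 were tested, 1 was higher, 3 were lower and 6 did not pass, with a median log2 FC of 0.05. With scaling by library size alone 3 were higher and 0 lower, and 0 were lower with WT mouse 4, KSR23 mouse 3 or KSR23 mouse 4 left out, so no direction is given for the group. Pkp2 rose by 0.45 (adjusted p = 0.00373), and Dsg2 (log2 FC -0.21, adjusted p = 0.0272) and Dsc2 (-0.34, adjusted p = 0.0348) fell, though the last 2 calls were lost under 6 and 7 of 18 alternatives.

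**Figure D4:**
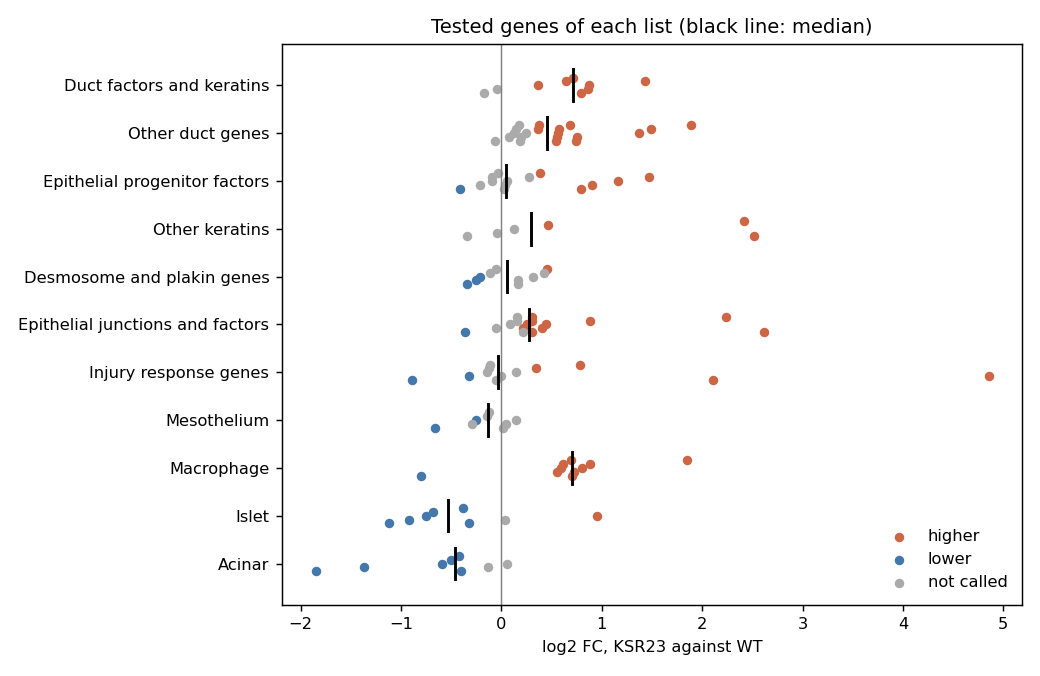
Log2 FC between KSR23 and WT mice (horizontal axis) of every tested gene in the lists shown, with a black line at each list's median. Colour gives whether a gene was called higher, lower or not called. The mesenchyme, endothelium, intestine and keratinocyte lists are not drawn. The duct genes centre at 0.71 and the other duct genes at 0.46, the acinar and islet lists lie mostly below 0, and the macrophage list centres at 0.70.

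Markers of other cell types moved in the same libraries, and in bulk tissue fewer cells of a type and less RNA per cell cannot be told apart. Of 8 acinar genes, 6 fell and 2 did not pass, with a median log2 FC of -0.46, among them Pnlip (-1.85), Cpa1 (-1.37) and Ptf1a (-0.50, SE 0.111, adjusted p = 0.00218). Their summed level was 157162 to 168116 CPM in WT and 105221 to 132128 CPM in KSR23 mice. Most of it came from Cel (mean 84453 CPM in WT and 56028 CPM in KSR23 mice) and Ctrb1 (58745 and 53546 CPM). Cel fell and Ctrb1 did not pass, and both are named for their level, after their values were seen. The 7 calls among the duct genes were the same in number when library sizes were taken without the 50 highest genes, and also by total counts alone. Other scalings cannot separate a smaller acinar share of the tissue from a rise of duct genes. The part of the acinar fall in that rise was not tested. Of 8 islet genes, 6 fell, 1 rose and 1 did not pass (median log2 FC -0.53), Gcg by 1.12 (log2 FC -1.12), and the sum was 8174 to 11439 CPM in WT and 5053 to 6401 CPM in KSR23 mice.

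Of 10 macrophage markers, 9 rose and 1 fell, with a median log2 FC of 0.70, and their summed level was 411 to 504 CPM in WT and 454 to 760.0 CPM in KSR23 mice, with overlap. Cd14 rose by 1.85 (adjusted p = 4.46e-09), and C1qa, named after its value was seen, was the one that fell (log2 FC -0.80, adjusted p = 4.74e-07). The part of macrophages in the rise of Spp1 was not tested. Mesothelium also makes Krt7, Krt8, Krt18 and Krt19. Of its 8 markers 0 rose, 2 fell and 6 did not pass (median log2 FC -0.13), Gpm6a by 0.66 (log2 FC -0.66), Upk3b with -0.25 (adjusted p = 0.0284, lost in 7 of 18 alternatives) and Lrrn4 with -0.30 (adjusted p = 0.0608, gained in 4), and the sum was 254 to 306 CPM in WT and 207 to 282 CPM in KSR23 mice. Of 6 keratinocyte markers 2 were tested and neither passed, with Krt14 at 2.03 and 2.21 CPM and Krt10 at 5.77 and 4.61 CPM. Krt10 was called lower with KSR23 mouse 3 left out (adjusted p = 0.0434). Krt5, a defining keratin of the basal epidermis, was at 0, and the sum was 6.01 to 9.46 CPM in WT and 5.36 to 9.01 CPM in KSR23 mice.

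Of 6 intestine markers 2 were tested, Vil1 was higher (log2 FC 0.41, adjusted p = 0.0336, a call lost in 5 of 18 alternatives, each of which left out 1 of WT mice 1, 2 and 4 or KSR23 mice 3 and 4, with an adjusted p of up to 0.102) and Lgals4 did not pass (0.37, adjusted p = 0.403). The sum of the 6 was 5.32 to 7.97 CPM in WT and 7.70 to 10.9 CPM in KSR23 mice. Cdx2 had 0 counts in all WT mice and 0 to 3 counts in KSR23 mice, too few to be tested. Of 8 mesenchyme genes 1 rose (Pdgfrb, 0.35), 2 fell (Lum, -0.53, and Acta2, -0.48) and 5 did not pass, and of 6 endothelial genes 3 rose (Tie1 by 0.33 and Kdr by 0.31 among them), 2 fell (Cdh5 with -0.47 among them) and 1 did not pass. The medians were -0.17 and 0.09.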

How the data were processed

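The 9 members and all gene lists were chosen with earlier results of these data known. RNA was primed with oligo-dT (SMART-Seq v4) and amplified by PCR. Per the labels and the study's methods, the authors aligned single-end reads to mm10 with TopHat2 2.1.0 and counted uniquely aligned reads per gene with HTSeq 0.6.1p1, and they deposited raw counts for 24062 genes per mouse. The annotation release and the strand setting are not given in the sources used here. The 5 tallies of alignments given to no gene (42.3% to 57.2% of alignments) were kept out of all library sizes.

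Genes under 5 counts in any library were left out, which kept 13882. Library sizes were scaled by TMM, and groups were compared with edgeR 4.0.16's quasi-likelihood F test in R 4.3.3, with Benjamini-Hochberg adjustment over all genes tested and a threshold of 0.05. The SE is the log2 FC divided by the square root of F. CPM use TMM-scaled library sizes, and log2 CPM a prior count of 2. For changes relative to Sox9, each library was scaled to its Sox9 count. Single values were compared by exact permutation over all 252 splits of the mice. Nothing in the labels says more than that replicates are separate samples, so p-values measure the spread between them. PCR copies were not removed, so limits cover counting error alone. On simulated counts with 2-fold changes between KSR23 and WT, 174 of 196 changed genes among 13748 were found, with 4.40% of 182 calls false.

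The text names the 9 members, of each other list every gene called with a log2 FC over 1 or under -1 or else the 3 with the smallest adjusted p, the 5 genes nearest to Sox9, and Il23a, Il12b and Ptf1a. Other genes are said to have been chosen after their values were seen. Adgre1 is listed under its older symbol. Gene positions and transcripts are from GENCODE M21 and upstream windows from RefSeq. Alternatives were other scalings, filters and tests (DESeq2 1.42.0 among them), a block for the replicate number, and the omission of each mouse in turn.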

Additional observations from a re-analysis of the deposited data

Results flagged for a closer look

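In 28 groups of 5 values (each member's CPM and each keratin ratio, per group), 4 held a value whose gap to the nearest other exceeded Dixon's critical value, where chance gives about 1.4. Sox9 was 49.4 CPM in WT mouse 3, against 65.1 to 68.4 CPM in the other WT mice. Without this mouse the log2 FC of Sox9 was 0.78, and relative to Sox9 that of Epcam was -0.39 and that of Prom1 0.62, each still past the test. The log2 ratio of Krt7 to Krt18 was -3.53 in WT mouse 4, against -3.15 to -3.02 in the other WT mice, and its difference between the groups was -0.24 without that mouse (exact permutation test, p = 0.103). The log2 ratio of Krt7 and Krt8 to Krt18 and Krt19 was -1.36 in WT mouse 4, against -1.23 to -1.19, and -1.17 in KSR23 mouse 3, against -1.28 to -1.25 in the other KSR23 mice.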

How the results depend on the processing

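All 9 members kept their side of the threshold in each of the 18 alternatives, and 7 were called higher in each. The count of members that differed from Sox9 stayed at 4 in the 14 alternatives run for it. Directions turned for values near 0 that never passed the test: with library size alone, Krt19 had a log2 FC of 0.0464 (mean difference of log2 CPM 0.0436). Over the fits that left out 1 mouse, the log2 FC of Krt14 ranged from -0.0423 to 0.294, and relative to Sox9 that of Krt7 ranged from -0.239 to 0.0201, of Krt18 from -0.0371 to 0.0873 and of Spp1 from -0.129 to 0.0509. The difference in the summed keratin ratio ranged from -0.0428 to 0.000847 without 1 mouse and was -0.0356 with whole GENCODE transcript lengths. Both of these alternatives were chosen after seeing the data. The other 4 ratios kept their direction and call without 1 mouse. Whole GENCODE lengths were not run for those 4, which a change of length shifts equally in every library. With library size alone, 3075 genes were higher and 1161 lower over all genes, against 2250 and 2049, with a median log2 FC over them of 0.09. Without 1 mouse the count of changed genes ranged from 3497 (without WT mouse 4) to 4173. Among genes of other lists, Mnx1 lost its call in 2 alternatives, Vil1 in 5 and Upk3b in 7, while Lrrn4 gained one in 4 and Krt10 in 1. Of the desmosome and plakin genes 1 was higher and 3 lower, against 3 and 0 with library size alone, and 0 were lower with the replicate number as a block.

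The replicate numbers are shared by the groups but name different mice. Same-numbered mice did not deviate together (correlations of -0.11 to 0.07), and 1 of 5 correlated best with its own number. With the replicate number as a block, 3749 genes changed, 1998 of them higher and 1751 lower, and 7 members were higher and 0 lower; 39 genes of the 6 other lists that hold no cell type markers were called, against 42, and 4 members differed from Sox9. Transcripts under 0.168 CPM, which is 3 counts in the smallest library, cannot be compared at this depth.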

Other observations

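Genes known from the response of the pancreas to injury, when acinar cells take on duct traits, moved in both directions. Of 15 listed, 12 were tested, 4 were higher, 2 were lower and 6 did not pass, with a median log2 FC of -0.03. Without the filter on low counts 6 were higher and 2 lower, since the filter left out Mmp7 and Muc6. Lcn2, an iron-sequestering defence protein, rose by 4.86 on the log2 scale (SE 0.280, adjusted p = 3.54e-10) and Agr2, a disulfide isomerase of secretory epithelia, by 2.11 (SE 0.238, adjusted p = 2.23e-06). Tff2, a trefoil peptide named after its value was seen, fell by 0.90 (log2 FC -0.90, adjusted p = 1.27e-05), from 941 to 506 CPM. Below the filter, Mmp7, a matrix metalloproteinase, had a mean of 0.113 CPM (SD 0.0677, n = 5) in WT and one of 4.98 CPM (SD 2.14, n = 5) in KSR23 mice, and Muc6, a gel-forming mucin, had one of 0.141 CPM (SD 0.0885, n = 5) and one of 1.37 CPM (SD 0.341, n = 5). Both were chosen after their values were seen, and for both every KSR23 mouse was above every WT mouse. With no filter their adjusted p by edgeR was 1.78e-09 for Mmp7 and 5.17e-06 for Muc6. Since both genes were picked by their values, these p-values are no test of them. Both WT means lay under 0.168 CPM, so the size of either rise cannot be given.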
